A study of Mus musculus with 12 samples.

Results

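Osteopontin (Spp1) and 7 genes used as markers of tubular injury were followed in mouse inner medullary collecting duct (mIMCD3) cells that had lost either of the polycystic kidney disease genes. The 8 genes, Spp1, Havcr1, Clu, Sox9, Vcam1, Anxa1, Anxa3 and Lgals3, were found by symbol among the 47642 genes of the deposited table, and 7 of them passed the filter, a mean of 1 normalized count or more, as did 18552 genes in all. The set was chosen by the measured fold changes of Spp1, whose level was lower by about the same amount in both mutants, so the values of Spp1 are given as a description with no test. The mRNA of 12 libraries was compared, 4 from each of 3 genotypes: wild-type cells (Wt), Pkd1-/- cells and Pkd2-/- cells. All of these cells stem from mice carrying the SV40 early region, which keeps them dividing. The Pkd1-/- line carries deletions of 44909 and 44798 bases on chromosome 17 (24550055 to 24594963 and 24550106 to 24594903), made with CRISPR/Cas9. The Pkd2-/- line carries a deletion of 12598 bases on chromosome 5 (104478281 to 104490878), made with TALENs. The labels name no build for these positions, which fall inside Pkd1 and Pkd2 as the GRCm38 annotation places them. Each mutant is 1 clone, and the 4 libraries of a genotype are 4 of 6 dishes, kept for the purity of their RNA and harvested 4 days after full confluency. P-values therefore cover the spread between dishes and not the spread between clones.

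Osteopontin is a secreted, heavily phosphorylated glycoprotein that binds cells through integrins and CD44, and in the tubule it slows the growth of calcium crystals. Injured tubule cells are known to make more of it, along with KIM-1 (encoded by Havcr1), the secreted chaperone clusterin (Clu), the repair transcription factor Sox9, the adhesion molecule Vcam1, the annexins Anxa1 and Anxa3, which bind membrane phospholipids in the presence of calcium, and the sugar-binding lectin galectin-3 (Lgals3). KIM-1 and Vcam1 are best known from the proximal tubule, whereas osteopontin and galectin-3 are also made in distal segments.

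The libraries summed to between about 26000000 and 28000000 normalized counts, from an estimated 23200000 to 30400000 reads on genes. Pkd1 mRNA read 682, 688, 883 and 876 normalized counts in Wt cells, 40, 49, 48 and 30 in Pkd1-/- cells, and 1057, 1216, 1071 and 1492 in Pkd2-/- cells. Pkd2 mRNA read 3438 to 4467 in Wt, 2545 to 2858 in Pkd1-/- and 3855 to 4135 in Pkd2-/- cells, and since the deletion removes only part of the gene, its total does not check the Pkd2-/- label. All 8 epithelial markers reached a mean of 10 normalized counts, among them Cdh1 and Epcam. Of 11 collecting duct markers, 6 reached this level, among them Hoxb7, Gata3 and Scnn1g, but the defining water channel Aqp2 was at 0 in all 12 libraries, and Avpr2 and Slc14a2 did not exceed 1. The summed collecting duct markers ranged from 16929 to 18333 in Wt, 12811 to 13522 in Pkd1-/- and 14458 to 15419 in Pkd2-/- cells. Most of that sum was Wnt7b, with means of 14676, 10756 and 13060, and single markers stood either way, such as Gata3 with 227, 48.5 and 354 and Hsd11b2 with 79.5, 116 and 57.0. Of 6 proximal tubule markers, Slc34a1 and Slc22a6 were at 0, and 2 reached a mean of 10, Lrp2 (508, 46.2 and 934) and Aqp1 (230, 577 and 268). Their list summed to 692 to 790 in Wt, 584 to 672 in Pkd1-/- and 1017 to 1499 in Pkd2-/- cells, and its part in the differences of the members was not tested. Of 7 leukocyte markers, 4 did not exceed 3 normalized counts in any library, Adgre1, Tyrobp and Itgam being at 0, while Csf1r was present at means of 880 in Wt, 479 in Pkd1-/- and 734 in Pkd2-/- cells. Endothelial markers summed to at most 10 normalized counts, and fibroblast markers to 25 to 55, 23 to 37 and 15 to 99 in the same order of genotypes.

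Spp1 lies on the forward strand of chromosome 5, from 104435118 to 104441050 (GRCm38). Its 4 Wt libraries read 4180, 3826, 3578 and 3880 normalized counts. The Pkd1-/- libraries read 1005, 1121, 926 and 1022, and the Pkd2-/- libraries 985, 1075, 1036 and 1011. Every mutant library thus lay below every Wt library, and the ranges of the mutants overlapped. The means were 3866 ± 247 (SD, n = 4) in Wt, 1018 ± 80.1 in Pkd1-/- and 1027 ± 38.3 in Pkd2-/- cells. The mutants thus kept 26.3% and 26.6% of the Wt level. On the log2(normalized count + 1) scale used for all differences here, this is -1.92 in Pkd1-/- and -1.91 in Pkd2-/- cells, and 0.01 between the mutants. In bulk RNA, fewer cells that make a transcript and less of it per cell cannot be told apart. Both comparisons use the same Wt libraries and are not independent of each other. The annotation places Gm42793, an unverified gene model, over the start of Spp1 on the same strand, and it read at most 3 normalized counts in any library.

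**Figure D1:**
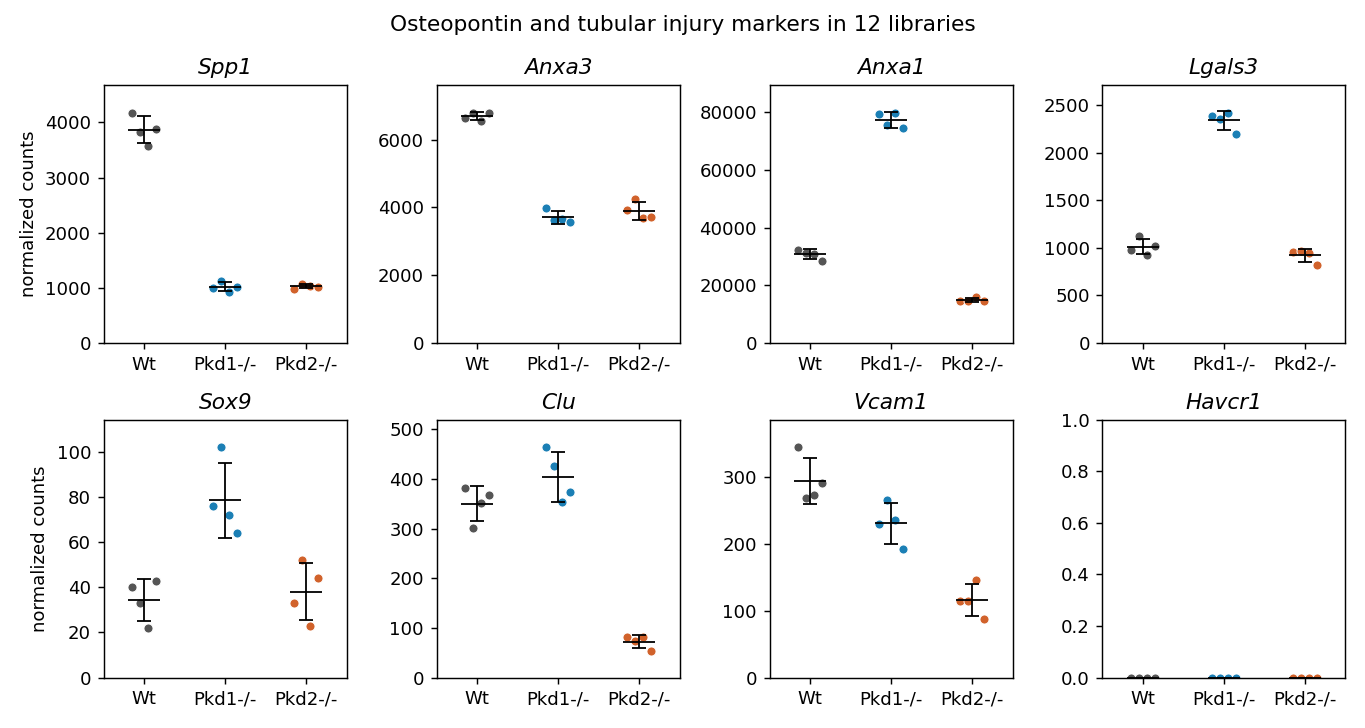
Normalized counts (vertical axes, each from 0) of the 8 genes in the 12 libraries, by genotype (horizontal axes). Points are libraries, and bars give the mean and SD of 4. Spp1 and Anxa3 are lower in both mutants, Anxa1 is higher in Pkd1-/- and lower in Pkd2-/- cells, and Havcr1 is at 0 throughout.

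The RefSeq promoter table (GRCm38.p6) had entries for 4 of the 8 genes, Spp1, Havcr1, Anxa1 and Lgals3. Spp1 had 2 RefSeq starts there, of which the first, at 104435111, is shown, and the other lies 1.07 kb inside the gene. Lgals3 had 1 RefSeq start, at 47373860, which lies 6.11 kb inside the gene as GENCODE draws it, since 1 of its 6 transcripts begins upstream and the other 5 begin within 200 bases of the RefSeq start. The stretches before these RefSeq starts are shown because these genes differ in their pattern, one lower in both mutants and the other higher in Pkd1-/- cells. Bases inside an annotated exon were left off. Capitals mark matches, on either strand, to the letters TATAAA, to the box named CCAAT, to the GC box with the letters GGGCGG, to the AP-1 letters TGANTCA, to the ETS letters AGGAAG and to the Runx letters AACCACA, and no match overlapped another. The Spp1 stretch covers chr5:104434861-104435110 and the Lgals3 stretch chr14:47373610-47373812, both on the forward strand.
Spp1: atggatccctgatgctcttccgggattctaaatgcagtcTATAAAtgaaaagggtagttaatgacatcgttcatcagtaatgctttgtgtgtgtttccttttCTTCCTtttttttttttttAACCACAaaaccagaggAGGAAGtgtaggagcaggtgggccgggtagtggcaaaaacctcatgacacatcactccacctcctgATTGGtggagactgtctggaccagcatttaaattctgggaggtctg
Lgals3: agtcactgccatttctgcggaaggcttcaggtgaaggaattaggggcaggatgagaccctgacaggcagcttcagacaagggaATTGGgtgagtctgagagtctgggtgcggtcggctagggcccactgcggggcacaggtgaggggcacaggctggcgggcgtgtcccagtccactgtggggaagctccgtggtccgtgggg

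The Spp1 stretch is 43.6% G and C, and that of Lgals3 63.1%. Spp1 held the Runx letters from 129 to 123 bases before its first RefSeq start, the ETS letters at 148 to 143 and at 112 to 107, a CCAAT box at 46 to 42, and TATAAA at 211 to 206. Before its other start, the ETS letters at 161 to 156 were the one match. Lgals3 held 1 CCAAT box, 167 to 163 bases before its RefSeq start, and a GC box at 7 to 2 among the exon bases left off. Among the 32851 promoters of the table, in windows of 250 bases, 4.4% held the Runx letters, 29.5% the ETS letters, 33.8% a CCAAT box, 12.4% TATAAA, 32.7% a GC box and 6.7% the AP-1 letters. A match describes the letters only and does not show that a factor binds there.

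Pkd2 begins 18.4 kb past the end of Spp1, and the deletion of the Pkd2-/- line 37.2 kb past it. The other expressed neighbours within 100 kb were BC005561 and the noncoding D930016D06Rik. BC005561 read 95, 103, 96 and 108 normalized counts in Wt, 108, 89, 90 and 118 in Pkd1-/- and 190, 117, 162 and 179 in Pkd2-/- cells. Its difference was 0.00 ± 0.15 (SE; limma adjusted p = 0.998) in Pkd1-/- cells, and in Pkd2-/- cells it rose by 0.66 ± 0.15 (limma adjusted p = 0.00126). D930016D06Rik likewise rose in Pkd2-/- cells, by 0.46 ± 0.12 (limma adjusted p = 0.00460), and differed by 0.05 ± 0.12 in Pkd1-/- cells (limma adjusted p = 0.823). Neither of them was lower in a mutant. Pkd2, the nearest of the expressed neighbours, fell in Pkd1-/- cells by 0.54 ± 0.07 (limma adjusted p = 3.31e-06). It is left out of the counts within 1 Mb and 5 Mb that follow. Within 1 Mb, 10 genes besides Spp1 and Pkd2 reached a mean of 10 normalized counts, with medians of 0.03 in Pkd1-/- and -0.01 in Pkd2-/- cells. Among these, 1 rose and 3 fell in Pkd1-/- cells, and 3 rose and 4 fell in Pkd2-/- cells. The lowest in both mutants was Gbp9, 0.671 Mb from Spp1, at -1.42 and -1.35. A wider window of 5 Mb on each side was chosen after the values were seen. In it, 63 other genes reached this level, with a median log2 fold change of -0.08 in Pkd1-/- and 0.03 in Pkd2-/- cells. Of them, 12 rose and 24 fell in Pkd1-/- cells, and 15 rose and 15 fell in Pkd2-/- cells. Of all 13694 genes at this level, 2287 rose and 2302 fell in Pkd1-/- cells, with a median of 0.01. In Pkd2-/- cells 3515 of them rose and 3740 fell, with a median of -0.01. Over 920 other genes of chromosome 5 the median was -0.17 in Pkd1-/- cells, where 191 rose and 364 fell, and -0.04 in Pkd2-/- cells, where 191 rose and 270 fell. The part of this shift in the level of Spp1 was not tested. Of the 63 genes nearby, 1 stood at or below Spp1 in Pkd1-/- cells and 0 did in Pkd2-/- cells. Spp1 was chosen for its fall in both mutants, so a low rank among its neighbours is built in and was given no test.

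**Figure D2:**
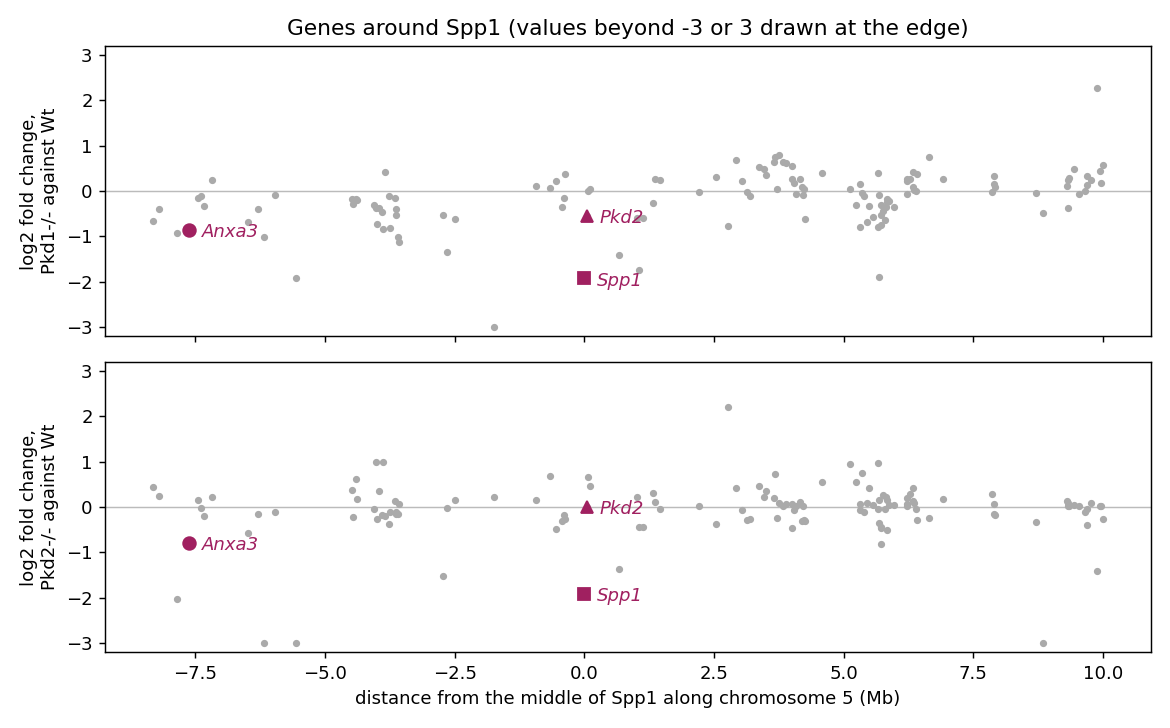
Log2 fold change against Wt (vertical axes) of genes that reached a mean of 10 normalized counts, by distance from the middle of Spp1 on chromosome 5 (horizontal axis, Mb), in Pkd1-/- (top) and Pkd2-/- cells (bottom). Spp1, chosen for its fall, sits at -1.92 and -1.91, below nearly all grey points near it. To the left, around Anxa3, the grey points of the top panel lie mostly below 0.

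The genes most like Spp1 were sought among 12850 genes that averaged 10 or more normalized counts in each genotype, by the distance between their pairs of log2 fold changes. The nearest was Krt19, a keratin of simple epithelia, at a distance of 0.30, with means of 4472 in Wt, 1329 in Pkd1-/- and 1409 in Pkd2-/- cells. Scnn1g, which encodes a subunit of the epithelial sodium channel of the collecting duct, followed at 0.31, with 928, 303 and 255. Then came Igsf3 at 0.32, the complement gene C3 at 0.34 (80.5, 26.0 and 21.2), Gal3st1, an enzyme of sulfatide synthesis, at 0.35, and Bex4 at 0.40. These 6 genes lie on 5 chromosomes (11, 7, 3, 17 and X), none of them on chromosome 5, and all were picked for this likeness, which was given no test.

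Several partners of osteopontin were measured too. Of 11 receptor genes, integrin chains and Cd44, 9 could be tested. In Pkd1-/- cells 1 rose and 4 fell, where 13.6% of all tested genes rose and 13.5% fell, and in Pkd2-/- cells 1 rose and 5 fell, where 20.0% rose and 22.3% fell. Their median log2 fold changes were -0.18 and -0.30, against 0.01 and -0.01 over all tested genes. Itgb3, the β3 chain of the classic osteopontin receptor, read 95, 72, 82 and 73 normalized counts in Wt, 9, 14, 6 and 11 in Pkd1-/- and 20, 20, 14 and 27 in Pkd2-/- cells. It fell in both mutants, with changes of -2.93 ± 0.26 (limma adjusted p = 6.96e-08) and -1.97 ± 0.26 (limma adjusted p = 5.85e-06).

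Itgb6, which encodes the β6 chain of epithelial integrins, fell by 0.81 ± 0.08 in Pkd1-/- and by 1.62 ± 0.08 in Pkd2-/- cells (limma adjusted p = 4.41e-07 and 1.33e-11), from a mean of 2285 to 1298 and 747. Itga5, the fibronectin receptor chain, fell in Pkd2-/- cells from 656 to 174 (-1.91 ± 0.09, limma adjusted p = 3.08e-12) and read 578 in Pkd1-/- cells (-0.18 ± 0.09, limma adjusted p = 0.141). Cd44, the hyaluronan receptor, moved in opposite directions. It read 478, 429, 406 and 428 in Wt, 973, 1120, 1066 and 996 in Pkd1-/-, and 167, 246, 176 and 198 in Pkd2-/- cells, with no overlap between genotypes. The change was 1.25 ± 0.10 in Pkd1-/- cells (limma adjusted p = 1.71e-08) and -1.16 ± 0.10 in Pkd2-/- cells (limma adjusted p = 2.37e-08).

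Of 9 genes for enzymes and related proteins that modify or cleave osteopontin, 6 could be tested, and Mmp7 and F2 were at 0. In Pkd1-/- cells 1 rose and 2 fell, and in Pkd2-/- cells 2 rose and 1 fell, with medians of -0.12 and 0.57, to be read against the same shares of all tested genes. Fam20c, the Golgi kinase that phosphorylates osteopontin, rose from a mean of 434 in Wt to 614 in Pkd1-/- cells (0.51 ± 0.08, limma adjusted p = 1.10e-04) and to 2439 in Pkd2-/- cells (2.50 ± 0.08, limma adjusted p = 2.85e-14). Tgm2, the transglutaminase that cross-links it, fell from 116 to 58.8 in Pkd1-/- and to 52.5 in Pkd2-/- cells (limma adjusted p = 1.30e-04 and 1.20e-05). Plau, urokinase, fell by 1.02 ± 0.07 in Pkd1-/- cells (limma adjusted p = 8.23e-10) and differed by 0.05 ± 0.07 in Pkd2-/- cells (limma adjusted p = 0.589). Plat, tissue plasminogen activator, rose in Pkd2-/- cells by 0.67 ± 0.07 (limma adjusted p = 5.55e-07) and differed by 0.18 ± 0.07 in Pkd1-/- cells (limma adjusted p = 0.0732).

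The 12 transcription factors listed as regulators of Spp1 could all be tested. In Pkd1-/- cells 2 rose and 3 fell, and in Pkd2-/- cells 6 rose and 2 fell, with medians of -0.10 and 0.12. Over all tested genes, 13.6% rose and 13.5% fell in Pkd1-/- and 20.0% rose and 22.3% fell in Pkd2-/- cells. The vitamin D receptor gene Vdr, a known activator of Spp1, read 20, 10, 12 and 20 in Wt and 41, 50, 41 and 34 in Pkd1-/- cells, a rise of 1.41 ± 0.41 (limma adjusted p = 0.0152) that missed the threshold with a pseudocount of 0.5 (limma adjusted p = 0.0504), without Wt replicate 2 (0.0515) and without Pkd1-/- replicate 2 (0.0505). In Pkd2-/- cells Vdr read 0, 0, 3 and 1, at least 5.17-fold lower than in Wt when 3 counts per library are taken as the floor. Fos, a part of AP-1, read 4362 to 9992 in Wt, 5078 to 8426 in Pkd1-/- and 14151 to 32232 in Pkd2-/- cells, where it rose by 1.49 ± 0.23 (limma adjusted p = 3.50e-05). Myc rose in Pkd2-/- cells by 0.74 ± 0.09 (limma adjusted p = 3.07e-06), and Ets2 fell in Pkd1-/- cells by 0.75 ± 0.05 (limma adjusted p = 7.55e-10). These 4 of the 12 factors were named for the size of their change, and their part in the level of Spp1 was not tested. The other genes of the SIBLING family, to which osteopontin belongs (Dspp, Dmp1, Ibsp and Mepe), were at 0 except for 1 normalized count of Mepe in a single library.

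Among the members other than Spp1, 6 could be tested. In Pkd1-/- against Wt, 3 rose and 1 fell, where 13.6% of all tested genes rose and 13.5% fell. In Pkd2-/- against Wt, 0 rose and 4 fell, where 20.0% rose and 22.3% fell. In Pkd2-/- against Pkd1-/- cells, 0 rose and 5 fell, where 21.9% rose and 24.3% fell. The limma counts of 0 were also 0 at an unadjusted p under 0.05. The shares of tested genes that passed in either direction were 27.1%, 42.3% and 46.3%. All 6 members averaged more than 10 normalized counts, a level at which a larger share of genes passed. Of the 13694 genes with a mean of 10 or more, 2287 rose and 2302 fell in Pkd1-/- cells. In Pkd2-/- cells 3515 of them rose and 3740 fell, and between the mutants 3807 rose and 4036 fell. The median of the 6 members was 0.69, -0.91 and -1.21 in the 3 comparisons, against 0.01, -0.01 and -0.01 over all tested genes. Differences that passed and reached 1 on the log2 scale were found for 3 members in Pkd1-/- cells, all higher, where 6.24% of tested genes did so, 2.96% higher and 3.28% lower. For Pkd2-/- cells the number was 3 members, all lower, against 9.62% of tested genes, 3.24% higher and 6.38% lower. Between the mutants 4 did, all lower in Pkd2-/- cells, against 11.8%, of which 4.53% were higher and 7.23% lower. The ranges of the libraries did not overlap for 5, 4 and 5 of the 6 members in the same order, and for 27.1%, 37.2% and 41.8% of all tested genes. Such counts over few, chosen genes describe the members and were given no test of their own.

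**Figure D3:**
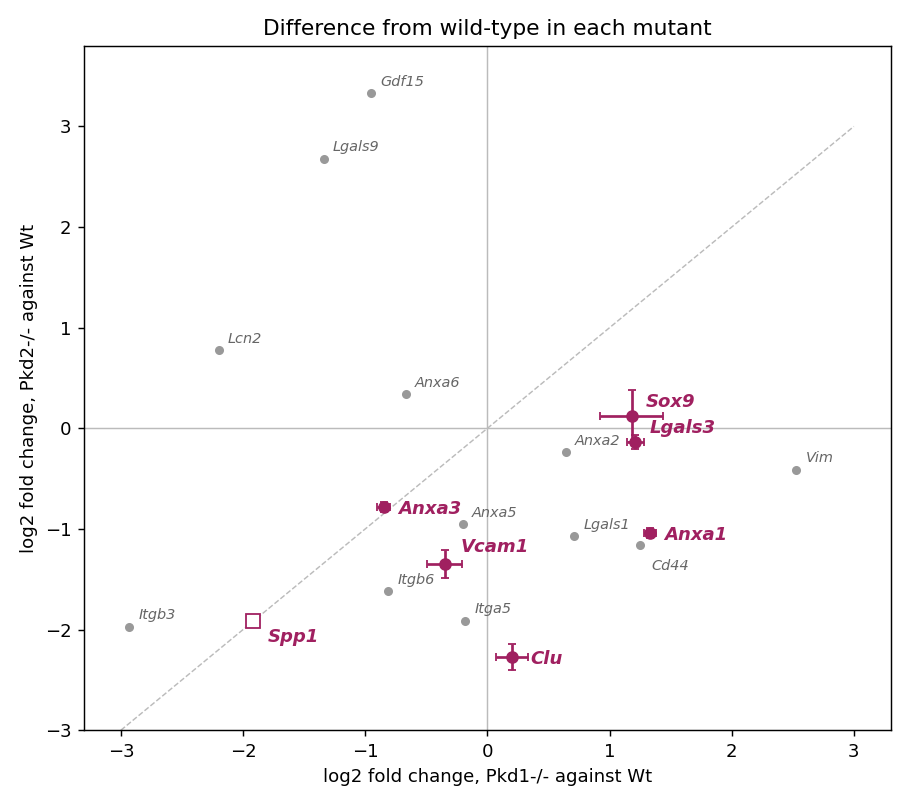
Log2 fold change against Wt in Pkd1-/- (horizontal axis) and Pkd2-/- cells (vertical axis). Members are in colour with standard errors, Spp1 is an open square without a test, and 12 genes of the related lists are grey. Spp1 and Anxa3 lie on or next to the dashed line of equal change, while Anxa1, with Cd44 and Lgals1 near it, lies where Pkd1-/- is above and Pkd2-/- below Wt.

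Of the 6 members tested, Anxa3 was the one that fell in both mutants. It lies on the same chromosome, at 96793339 to 96845966 on the forward strand of chromosome 5, 7.59 Mb before Spp1. The libraries read 6636, 6803, 6567 and 6782 normalized counts in Wt, 3975, 3627, 3656 and 3574 in Pkd1-/-, and 3928, 4254, 3684 and 3733 in Pkd2-/- cells. All 8 mutant libraries were below all Wt libraries, and the mutants overlapped. Anxa3 fell by 0.85 ± 0.05 in Pkd1-/- cells (limma adjusted p = 2.20e-10) and by 0.78 ± 0.05 in Pkd2-/- cells (limma adjusted p = 3.10e-10). The exact two-sided permutation test gave p = 0.0286 for each, the smallest value it can give with 4 libraries against 4. Between the mutants the difference was 0.07, with a 95% interval from -0.03 to 0.18 (limma adjusted p = 0.267).

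The surroundings of Anxa3 moved with it in Pkd1-/- cells. Of 56 other genes within 5 Mb that reached a mean of 10 normalized counts, 0 rose and 39 fell in Pkd1-/- cells by limma (0 and 41 at an unadjusted p under 0.05), with a median of -0.45. Of the 56, 12 were at or below Anxa3. In Pkd2-/- cells 13 rose and 13 fell, with a median of -0.11, and 4 of the 56 were at or below Anxa3. Of all 13694 genes at this level, 2287 rose and 2302 fell in Pkd1-/- cells, and 3515 rose and 3740 fell in Pkd2-/- cells. The direct neighbour Fras1, which encodes a basement membrane protein, fell by 0.92 ± 0.11 in Pkd1-/- cells (limma adjusted p = 3.59e-06) and by 2.02 ± 0.11 in Pkd2-/- cells (limma adjusted p = 3.40e-11), from a mean of 3409 to 1808 and 846. The part of the surroundings in the fall of Anxa3 was not tested.

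Anxa1 was the most abundant member. It lies on the reverse strand of chromosome 19, at 20373428 to 20390944. Its libraries read 32347, 31385, 31037 and 28534 normalized counts in Wt, 79397, 75687, 79960 and 74527 in Pkd1-/-, and 14628, 14576, 15919 and 14612 in Pkd2-/- cells. The 3 genotypes did not overlap, with Pkd1-/- cells highest and Pkd2-/- cells lowest. Anxa1 rose by 1.33 ± 0.05 in Pkd1-/- cells (limma adjusted p = 4.38e-13), a 2.51-fold difference, and fell by 1.04 ± 0.05 in Pkd2-/- cells (limma adjusted p = 4.44e-12). Between the mutants it was 5.18-fold lower in Pkd2-/- cells (-2.37 ± 0.05, limma adjusted p = 2.91e-17). Each of the 3 exact permutation tests gave the smallest possible p, 0.0286.

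Chromosome 19 as a whole was shifted in both mutants. Over 481 other genes on it that reached a mean of 10, the median was 0.17 in Pkd1-/- cells, where 215 rose and 46 fell, and 0.28 in Pkd2-/- cells, where 285 rose and 54 fell. Over all 13694 genes at this level the medians were 0.01 and -0.01. Of these, 2287 rose and 2302 fell in Pkd1-/- cells, and 3515 rose and 3740 fell in Pkd2-/- cells. Of the 481, 9 were at or above Anxa1 in Pkd1-/- cells and 20 at or below it in Pkd2-/- cells. The part of the chromosome 19 shift in the level of Anxa1 was not tested. On the opposite strand, 1500015L24Rik, a noncoding gene overlapping Anxa1, read at most 22 normalized counts in any library.

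Lgals3 also rose in Pkd1-/- cells. It lies on the forward strand of chromosome 14, at 47367751 to 47386160. Galectin-3 mRNA read 980, 1121, 927 and 1022 normalized counts in Wt, 2391, 2351, 2423 and 2200 in Pkd1-/-, and 954, 967, 943 and 817 in Pkd2-/- cells. Pkd1-/- libraries stood apart from all others, and Wt and Pkd2-/- libraries overlapped. The rise was 1.21 ± 0.07 (limma adjusted p = 8.16e-11; exact permutation p = 0.0286). In Pkd2-/- cells the difference was -0.14, with a 95% interval from -0.28 to 0.00 (limma adjusted p = 0.108), and it passed the test in 1 alternative, without Wt replicate 3 (-0.18, limma adjusted p = 0.0494). None of the 56 genes within 5 Mb of Lgals3 was as high as Lgals3 in Pkd1-/- cells, and their median was 0.05.

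Sox9, on the forward strand of chromosome 11 at 112782224 to 112787760, was the least abundant of the tested members. It read 40, 33, 22 and 43 normalized counts in Wt, 76, 102, 72 and 64 in Pkd1-/-, and 33, 52, 23 and 44 in Pkd2-/- cells. The Pkd1-/- libraries were above all others, and Wt and Pkd2-/- libraries were interleaved. Sox9 rose by 1.18 ± 0.26 in Pkd1-/- cells (limma adjusted p = 0.00156; exact permutation p = 0.0286), by 0.99 without Wt replicate 3, which was the lowest library. The difference in Pkd2-/- cells was 0.12, with a 95% interval from -0.42 to 0.65 (limma adjusted p = 0.760), and its sign turned without Wt replicate 3 (-0.08) and without Pkd2-/- replicate 2 (-0.05). Between the mutants Sox9 was lower in Pkd2-/- cells by 1.07 ± 0.26 (limma adjusted p = 0.00187).

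Clu fell in Pkd2-/- cells. It lies on the forward strand of chromosome 14, at 65968483 to 65981547, 18.6 Mb past Lgals3. Clusterin mRNA read 382, 301, 352 and 367 normalized counts in Wt, 464, 426, 353 and 375 in Pkd1-/-, and 81, 73, 82 and 54 in Pkd2-/- cells. Wt and Pkd1-/- libraries overlapped, and the Pkd2-/- libraries lay far below both. In Pkd2-/- cells 20.7% of the Wt level remained, a fall by 2.27 ± 0.13 (limma adjusted p = 6.33e-11; exact permutation p = 0.0286). The difference in Pkd1-/- cells was 0.20, with a 95% interval from -0.07 to 0.48 (limma adjusted p = 0.285), and the direct comparison of the mutants gave -2.47 ± 0.13 (limma adjusted p = 1.35e-11). Of 57 genes within 5 Mb, 2 were at or below Clu in Pkd2-/- cells, and their median was -0.08.

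Vcam1, on the reverse strand of chromosome 3 at 116109949 to 116129688, was highest in Wt cells. It read 344, 268, 273 and 290 normalized counts in Wt, 229, 265, 235 and 192 in Pkd1-/-, and 114, 115, 146 and 88 in Pkd2-/- cells. No genotypes overlapped, although only 3 normalized counts separated the highest Pkd1-/- from the lowest Wt library. Vcam1 fell by 1.35 ± 0.14 in Pkd2-/- cells (limma adjusted p = 2.09e-07) and was lower there than in Pkd1-/- cells by 1.00 ± 0.14 (limma adjusted p = 7.24e-06). The difference in Pkd1-/- cells, -0.35 with a 95% interval from -0.64 to -0.06, missed the threshold (limma adjusted p = 0.0685; exact permutation p = 0.0286). It passed in 5 of 21 alternatives, which were the replicate block, a fit of these genotypes alone, and fits without Pkd1-/- replicate 2, Pkd2-/- replicate 3 or Pkd2-/- replicate 4, with limma adjusted p from 0.0232 to 0.204 over all of them. Over 775 other genes of chromosome 3, 82 rose and 204 fell in Pkd1-/- cells, with a median of -0.09, and 135 stood at or below Vcam1. In Pkd2-/- cells 140 rose and 254 fell, with a median of -0.06, and 42 stood at or below Vcam1. These counts cover genes that reached a mean of 10 normalized counts. Of all 13694 such genes, 2287 rose and 2302 fell in Pkd1-/- cells, and 3515 rose and 3740 fell in Pkd2-/- cells.

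Havcr1, at 46735080 to 46779578 on the forward strand of chromosome 11, read 0 in all 12 libraries and could not be tested. A count of 0 allows up to 3 reads in a library, for counting error alone. Its relatives Havcr2, Timd2 and Timd4 were at 0 as well.

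Levels of different genes were set beside each other as normalized counts per kb of exon, with all annotated exons of a gene merged. The merged length can exceed that of the transcript made, and the order of genes depends on it. The spread of libraries does not cover this. Without the division, Anxa3 (mean 6697) stood above Spp1 (3866) in Wt cells too. In Wt cells the order was Anxa1 (10589), Spp1 (2346), Anxa3 (1838), Lgals3 (545), Clu (102), Vcam1 (33.1) and Sox9 (8.34), and no neighbours in this order overlapped between libraries. Spp1 held rank 544 among the 18552 tested genes in Wt, and rank 2794 in Pkd1-/- and 2803 in Pkd2-/- cells. Anxa1 went from rank 58 to 14 in Pkd1-/- cells (26586 per kb) and to 181 in Pkd2-/- cells (5130 per kb). Spp1, next to Anxa1 in Wt, stood at 618 per kb in Pkd1-/- cells, behind Lgals3 (1260) and Anxa3 (1018), and at 623 per kb in Pkd2-/- cells, between Anxa3 (1070) and Lgals3 (495). The neighbours whose libraries overlapped were Vcam1 and Sox9 in Pkd1-/- cells, and Clu with Vcam1 and Vcam1 with Sox9 in Pkd2-/- cells.

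**Figure D4:**
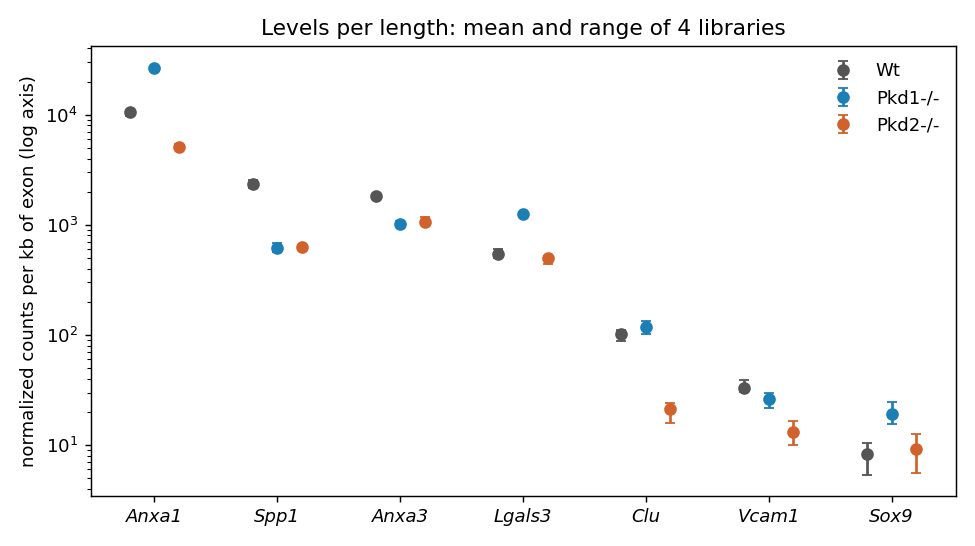
Normalized counts per kb of exon (vertical log axis) of the 7 detected members in Wt, Pkd1-/- and Pkd2-/- cells. Points are means and bars the range of 4 libraries. Anxa1 is the highest in every genotype. On this scale Spp1 is above Anxa3 in Wt and below it in both mutants, whereas counts not divided by length put Anxa3 above Spp1 in Wt as well.

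Of a list of 35 other genes used as markers of tubular injury, 30 could be tested. In Pkd1-/- cells 6 rose and 15 fell, with a median of -0.27, and in Pkd2-/- cells 13 rose and 10 fell, with a median of -0.00. Here and for the families that follow, the shares of all tested genes were 13.6% higher and 13.5% lower in Pkd1-/- cells, and 20.0% higher and 22.3% lower in Pkd2-/- cells. Lcn2, which encodes NGAL, read 2862, 2954, 2893 and 2616 in Wt, 710, 558, 643 and 558 in Pkd1-/-, and 5249, 5164, 4753 and 4334 in Pkd2-/- cells. It fell by 2.20 ± 0.08 in Pkd1-/- cells (limma adjusted p = 1.57e-13) and rose by 0.78 ± 0.08 in Pkd2-/- cells (limma adjusted p = 1.15e-07), the reverse of Anxa1. Gdf15, a stress-induced cytokine of the TGF-β family, likewise fell in one mutant and rose in the other. Its libraries read 107, 135, 164 and 150 in Wt, 78, 70, 54 and 83 in Pkd1-/-, and 1247, 1212, 1481 and 1648 in Pkd2-/- cells, a fall by 0.95 ± 0.15 (limma adjusted p = 5.37e-05) and a rise by 3.33 ± 0.15 (limma adjusted p = 1.41e-12).

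Vim, which encodes the mesenchymal intermediate filament vimentin, rose in Pkd1-/- cells from a mean of 33.2 to 194 (2.53 ± 0.22, limma adjusted p = 3.95e-08) and read 25.5 in Pkd2-/- cells (-0.41 ± 0.22, limma adjusted p = 0.142). Dcdc2a, a doublecortin-domain gene, read 61, 64, 81 and 86 in Wt, 0, 2, 0 and 5 in Pkd1-/-, and 50, 51, 42 and 64 in Pkd2-/- cells. The fall in Pkd1-/- cells passed the test (limma adjusted p = 3.53e-08). Krt19 and C3, named above for their likeness to Spp1, also belong to this list.

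The families of the members were split as well. Of 10 other annexins, 8 could be tested, and 3 rose and 4 fell in Pkd1-/- cells, whereas 3 rose and 3 fell in Pkd2-/- cells, with medians of -0.16 and 0.03. Anxa2 followed Anxa1 in both directions with smaller changes, 0.64 ± 0.06 in Pkd1-/- and -0.24 ± 0.06 in Pkd2-/- cells (limma adjusted p = 4.76e-08 and 0.00155). Anxa8 did so at low levels, with 5, 8, 8 and 3 in Wt, 16, 12, 19 and 30 in Pkd1-/-, and 0, 0, 2 and 1 normalized counts in Pkd2-/- cells, and its rise in Pkd1-/- cells (limma adjusted p = 0.0150) was lost without Wt replicate 4 (0.0548) and without Pkd1-/- replicate 4 (0.0612). Anxa5 fell in both mutants, with changes of -0.20 ± 0.05 and -0.95 ± 0.05 (limma adjusted p = 0.00597 and 2.04e-11), and Anxa6 fell in Pkd1-/- and rose in Pkd2-/- cells, with -0.67 ± 0.10 and 0.34 ± 0.10 (limma adjusted p = 2.44e-05 and 0.00803). The Wt and Pkd2-/- libraries of Anxa6 overlapped (exact permutation p = 0.0857). Of the partners, S100a10, which binds Anxa2, fell in Pkd2-/- cells by 0.23 ± 0.07 (limma adjusted p = 0.00708), and the formyl peptide receptors Fpr1, Fpr2 and Fpr3, through which Anxa1 acts on leukocytes, were at 0 in all libraries. S100a11, which binds Anxa1, rose by 0.19 ± 0.07 in Pkd1-/- cells (limma adjusted p = 0.0462), a call lost in 10 of 21 alternatives, 8 of them leaving out 1 library, with adjusted p up to 0.147, and fell by 0.25 ± 0.07 in Pkd2-/- cells (limma adjusted p = 0.00554).

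Of 10 other galectins, 8 could be tested, of which 2 rose and 4 fell in Pkd1-/- cells and 3 rose and 1 fell in Pkd2-/- cells, and the medians were -0.31 and 0.17. Lgals1 rose in Pkd1-/- cells by 0.71 ± 0.06 (limma adjusted p = 5.21e-08) and fell in Pkd2-/- cells by 1.07 ± 0.06 (limma adjusted p = 7.27e-11), from a mean of 2160 to 3527 and 1030. Lgals9 did the reverse, with a fall by 1.34 ± 0.12 (limma adjusted p = 1.13e-07) and a rise by 2.68 ± 0.12 (limma adjusted p = 2.90e-12), its libraries reading 220, 281, 304 and 401 in Wt, 112, 112, 125 and 116 in Pkd1-/-, and 1891, 1952, 1956 and 1761 in Pkd2-/- cells. Lgals12, at 4 to 8 normalized counts in Wt, rose to 23 to 36 in Pkd1-/- cells (limma adjusted p = 0.00254). Lgals4 read at most 22 and passed in neither mutant (limma adjusted p = 0.544 and 0.211).

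Of 4 clusterin receptors, 3 could be tested. In Pkd2-/- cells all 3 tested receptors were higher than in Wt, Lrp8 by 1.99 ± 0.13, Vldlr by 1.19 ± 0.05 and megalin (Lrp2) by 0.85 ± 0.20 (limma adjusted p = 5.54e-10, 2.28e-12 and 0.00189), where 20.0% of all tested genes rose. In Pkd1-/- cells Vldlr fell by 0.35 ± 0.05 (limma adjusted p = 5.79e-05). Megalin fell in Pkd1-/- cells by 3.50 ± 0.20 (limma adjusted p = 1.56e-10), reading 483, 474, 520 and 555 in Wt, 45, 52, 25 and 63 in Pkd1-/-, and 821, 962, 738 and 1217 in Pkd2-/- cells. Trem2, a clusterin receptor of myeloid cells, did not exceed 2 normalized counts.

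Of 7 partners of Vcam1, 6 could be tested, of which 1 fell in Pkd1-/- cells, and 2 rose and 1 fell in Pkd2-/- cells. Itga4, the leukocyte integrin chain that binds Vcam1, was at 0, and Itgb7, which pairs with it, did not exceed 20. Of the cytoskeletal linkers that Vcam1 binds inside the cell, ezrin (Ezr) and radixin (Rdx) rose in Pkd2-/- cells, by 0.27 ± 0.04 and 0.26 ± 0.06 (limma adjusted p = 6.84e-05 and 0.00156). The Wt and Pkd2-/- libraries of Rdx overlapped (exact permutation p = 0.0571). Moesin (Msn) fell in both mutants, with changes of -0.18 ± 0.05 and -0.24 ± 0.05 (limma adjusted p = 0.00975 and 6.23e-04).

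Among 15 other Sox genes, 8 could be tested, of which 2 rose and 2 fell in Pkd1-/- cells and 3 rose and 4 fell in Pkd2-/- cells, with medians of -0.24 and -0.89. Sox11, a factor of embryonic and regenerating epithelia, read 520, 378, 454 and 534 in Wt, 310, 320, 358 and 289 in Pkd1-/-, and 1, 1, 0 and 2 in Pkd2-/- cells, where it was at least 157-fold lower than in Wt. Its difference in Pkd1-/- cells was -0.55 ± 0.24 (limma adjusted p = 0.105), with no overlap between the libraries, and it passed in 4 of 21 alternatives. Among these, a fit of Wt and Pkd1-/- libraries alone gave -0.55 ± 0.10 (limma adjusted p = 5.37e-04). Sox21 fell in both mutants, with changes of -1.23 ± 0.19 and -2.07 ± 0.19 (limma adjusted p = 6.10e-05 and 5.00e-08). Sox8 read 9 to 17 in Wt and at most 3 in either mutant, at least 4.17-fold lower, and Sox6 was at least 6.58-fold lower in Pkd2-/- cells.

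**Figure D5:**
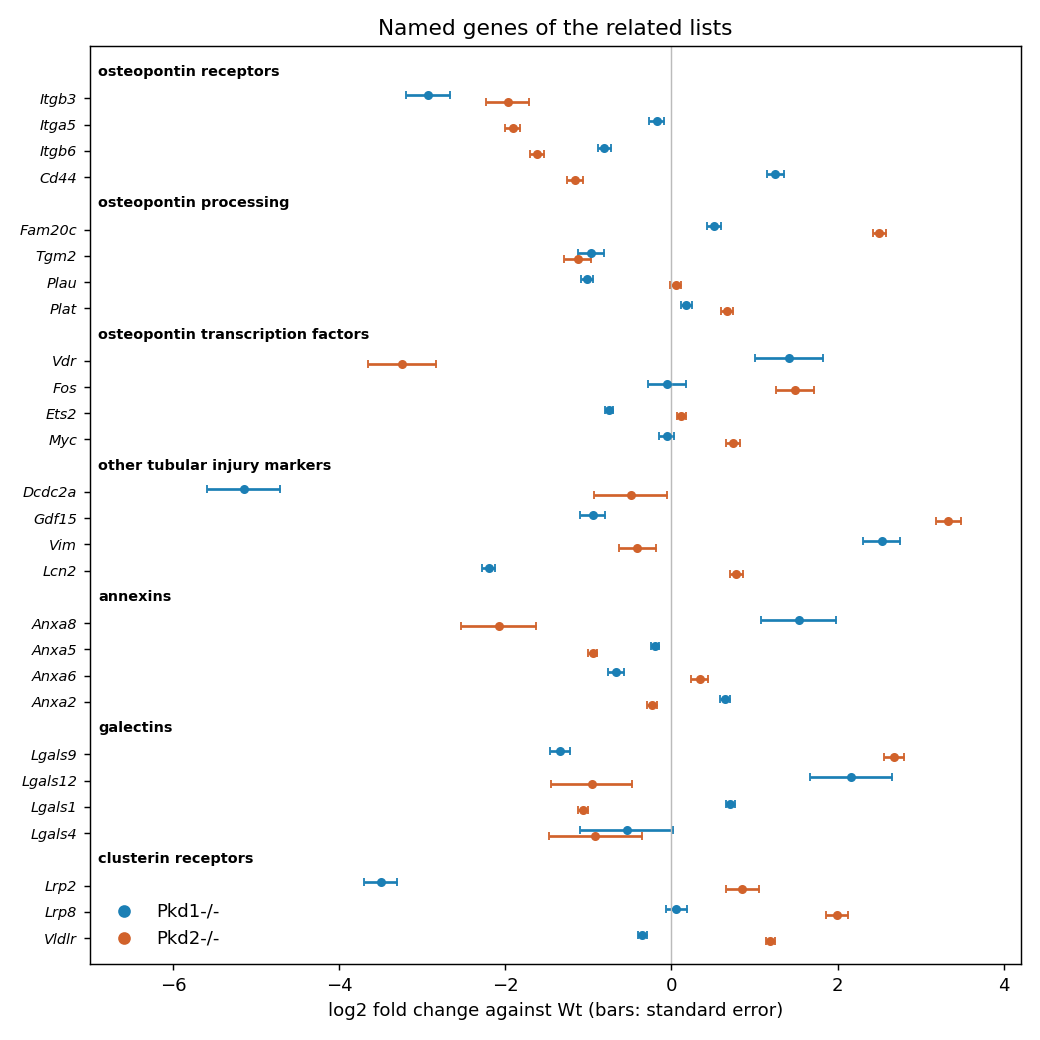
Log2 fold changes against Wt (horizontal axis, bars are standard errors) of the genes named from 7 related lists, in Pkd1-/- (blue) and Pkd2-/- cells (orange). Cd44, Anxa2 and Lgals1 are higher in Pkd1-/- and lower in Pkd2-/- cells, and Gdf15, Lcn2, Lgals9 and Lrp2 the reverse. Values of Vdr and Anxa8 in Pkd2-/- and of Dcdc2a in Pkd1-/- cells rest on libraries at or near 0 and depend on the pseudocount.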

How the data were processed

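Per the labels and the study's methods, RNA of 12 mIMCD3 dishes was sequenced. After trimming with Trim Galore, the authors mapped the reads to mm10 (GRCm38) with HISAT2, obtained counts for Ensembl genes with HTSeq and divided these by DESeq2 size factors. The deposited values are score values in the sense that they are normalized counts rounded to whole numbers, not read counts, so count models were not used. All 12 sample columns were used. The strand setting of the counting is not given in the sources used here. What 1 read is worth was estimated in each library from the gaps and doublings among low values, at 0.89 to 1.13 normalized counts, which gives the reads stated. Floors cover counting error only, because the reads carry no molecular identifiers.

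Symbols, positions and exon lengths came from GENCODE M21, which holds 47223 of the identifiers. Differences were tested with limma 3.58.1 (R 4.3.3; lmFit, eBayes with a variance trend) on log2(normalized count + 1) over the 18552 genes reaching a mean of 1, all 12 libraries in 1 model, two-sided, with Benjamini-Hochberg adjustment within each of 3 comparisons. "Rose" and "fell" mean an adjusted p under 0.05. The exact permutation test was two-sided over the 70 splits of 8 libraries. The fit was tested on simulated data. Python 3.11.15 with pandas 2.3.3 was used for the rest. The members and all gene lists were chosen with earlier results of these data known. Genes named beside the members were the targeted genes, up to 4 of each list with the largest change in either mutant among those reaching a mean of 10 in a genotype, the 6 genes nearest to Spp1, expressed neighbours within 100 kb, and cell type markers. Fras1 and Gbp9 were named after their values were seen. Alternatives were other pseudocounts, filters, scalings and models, a replicate block, and leaving out each library.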

Additional observations from a re-analysis of the deposited data

Results flagged for a closer look

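Within each genotype, the highest and lowest library of each detected member was compared with the rest by Dixon's ratio, which is the gap to the nearest library divided by the range. Of 21 groups, 2 exceeded its 95% critical value for 4 libraries, and chance alone is expected to do so in about 1 of 20. Anxa1 read 15919 normalized counts in Pkd2-/- replicate 3, with a ratio of 0.961, while the other 3 libraries lay between 14576 and 14628. Lgals3 read 817 in Pkd2-/- replicate 4, with a ratio of 0.840, below 943 to 967 in the others. Without that library the difference of Lgals3 between Pkd2-/- and Wt cells was -0.08 in place of -0.14, and it passed the test in neither case.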

How the results depend on the processing

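Over 9 alternatives with all libraries and 12 that leave out 1 library, 370 of 378 values of the 6 tested members kept their direction and their side of the threshold. The 6 that gained significance were 5 for Vcam1 in Pkd1-/- and 1 for Lgals3 in Pkd2-/- cells, and the 2 that changed sign were Sox9 in Pkd2-/- cells, which ran from -0.08 to 0.33 when 1 library was left out. Spp1, which has no test, ran from -1.97 to -1.88 in Pkd1-/- and from -1.95 to -1.87 in Pkd2-/- cells. Members that passed numbered 4 to 5 in Pkd1-/-, 4 to 5 in Pkd2-/- and 5 between the mutants. Genes called numbered 1095 to 1164, 1698 to 1793 and 2061 to 2186 when 1 library was left out, against 1158, 1785 and 2182. A minimum mean of 10 normalized counts, which tests fewer genes, gave 739 in Pkd1-/- against Wt. Other signs that changed belonged to differences near 0. Leaving out 1 library moved Fos from -0.28 to 0.12, Ezr from -0.02 to 0.03, Rdx from -0.00 to 0.10 and Lrp8 from -0.05 to 0.17 in Pkd1-/-, and Itgb7 from -0.27 to 0.53 and Pkd2 from -0.05 to 0.07 in Pkd2-/- cells, and the upper quartile scaling put Pkd2 at -0.02.

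The labels give each genotype the numbers 1 to 4. Deviations of same-numbered libraries correlated from -0.07 to 0.20, 2 of 12 pairs over 0.1, so the numbers were not taken to pair the libraries. Single genes could still follow the numbers. Fos was lowest in replicate 1 and highest in replicate 4 of every genotype, and the block lowered its SE in Pkd1-/- cells from 0.23 to 0.09. With a replicate block, 1170, 1790 and 2183 genes were called, and 5, 4 and 5 members passed, Vcam1 in Pkd1-/- cells being the addition (adjusted p = 0.0443). No scaling moved the median of all genes by more than 0.1. Low values limit Sox9, Vdr, Anxa8 and Dcdc2a, and 1 clone per mutant limits all comparisons.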
